A study of Vitis vinifera with 2 samples.

Results

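The outer promoter peaks described here are binding regions of the transcription factor VlbZIP30 whose centres lay between 501 and 1000 bp upstream of the transcription start site (TSS) of the nearest gene. They were taken from the authors' deposited peak list as the promoter-class peaks whose annotated promoter gene was also the nearest gene and whose centre lay 501 to 1000 bp before that TSS, both limits included. The rule found 2691 of 49173 peaks, which is 5.47% (95% Wilson interval 5.27 to 5.68%), and 21.7% (21.0 to 22.5%) of the 12387 promoter peaks. Each of the 2691 peaks belonged to a different gene. All peaks centred in this window carried the promoter class, and 16 of them were left out because another gene than the annotated promoter gene was the nearest.

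The list came from chromatin immunoprecipitation with sequencing (ChIP-seq) on grapevine, Vitis vinifera, that was transgenic for VlbZIP30 fused to 3 copies of the FLAG epitope and expressed from the CaMV 35S promoter, a viral promoter active in most plant tissues. Plants aged 4 months had gone without water for 20 days before the youngest leaves were collected, and both libraries came from such plants. The 2 libraries were 1 anti-FLAG precipitation and 1 control, whose title reads input while its antibody field names IgG. No replicate library, watered plant or plant without the tag was analysed here, so the values below describe 1 peak list, and no effect of drought was measured. Because overexpression came from a viral promoter, the peaks need not be those of the factor at its natural level.

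VlbZIP30 is a basic leucine zipper (bZIP) protein. Proteins of this family bind DNA as dimers through a basic region and in plants commonly recognise elements with an ACGT core, among them the G-box and the abscisic acid response element. Abscisic acid is the hormone that accumulates in leaves losing water, and bZIP factors of the ABF/AREB group switch on many of its target genes. In plant promoters such elements often lie close to the TSS. The outer promoter is defined here by distance alone and may hold such elements too. No genome sequence was used here, so no element was searched for in these peaks.

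The peak score is the authors' value and its scale is not named in the sources used here. It was therefore used to order peaks within the list and to give medians, and a difference in score units has no size that can be read beyond the list. The median score of the outer promoter peaks was 11.6 (95% order-statistic interval 11.1 to 12.3, quartiles 5.0 and 26.2, n = 2691). The median of all peaks was 7.56. Of the outer promoter peaks, 995 reached the upper quartile of the list, a score of 18.5, which is 37.0% (35.2 to 38.8%), against 25.5% of all peaks. The upper decile, a score of 35.9, was reached by 429 of them, or 15.9% (14.6 to 17.4%), against 10% of all peaks (4926 of 49173). At the other end, 417 scored below the lower quartile of the list, or 15.5%, against 23.0% of all peaks, and 9 shared the lowest score, 1.44. Proximal and core promoter peaks and upstream intergenic peaks, compared below, also differed from all peaks in these directions. Intervals cover counting error over peaks only, and the depth of the libraries is unknown.

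Outer promoter peaks came in a wide range of lengths. The median length was 650 bp (interval 623 to 680 bp), with quartiles of 365.5 and 1520 bp and a range from 196 to 10071 bp. The upper quartile was above that of the peaks centred nearer the TSS, which was 1261 bp for the 2895 proximal promoter peaks (201 to 500 bp upstream) and 824 bp for the 6382 core promoter peaks (200 bp upstream to 100 bp downstream). Peaks longer than 2000 bp made up 14.2% of the outer promoter peaks, 6.39% of the proximal ones, 2.80% of the core ones and 7.29% of the 5624 intergenic peaks from 1 to 3 kb upstream. The share was 6.51% over all peaks, and at 13.02% it was close to the outer promoter share among the 2526 peaks from 501 to 1000 bp downstream of the TSS. Across the 2691 outer promoter peaks, score and length were related with a Spearman rho of 0.723; these peaks share 1 library pair and are not independent replicates.

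**Figure D1:**
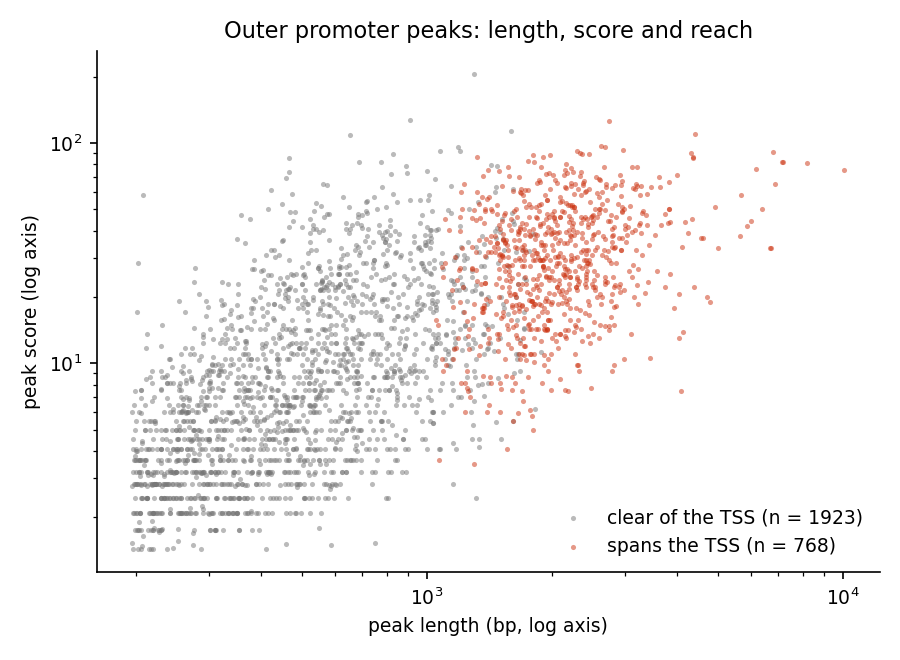
Score against length for the 2691 outer promoter peaks, both on log axes, 1 point per peak. Red points are the 768 peaks whose body spans the TSS, which are 1053 bp or longer, and grey points are the 1923 that end before it.

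The peaks fell into those that reached the TSS and those that ended short of it. In 768 of them, 28.5% (26.9 to 30.3%), the body of the peak spanned the TSS although its centre lay at least 501 bp away. Of all peaks 25.2% spanned the TSS of the nearest gene, as did 63.6% of proximal promoter peaks and 19.8% of those from 501 to 1000 bp downstream. These peaks had a median length of 1998 bp and a median score of 30.2 (interval 28.4 to 31.9). The other 1923 ended at a median of 509 bp before the TSS (quartiles 357 and 651 bp), with a median length of 469 bp and a median score of 7.56 (7.02 to 7.86). A peak can span the TSS from this window only if it is over about 1000 bp long, so the difference in length follows from the split itself. In length the groups overlapped between 1053 and 1879 bp.

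The higher score of the spanning peaks was seen on each of the 19 numbered chromosomes. Of the spanning peaks, 585 reached the upper quartile of the list, which is 76.2% (73.0 to 79.1%). Among the peaks that ended short of the TSS 410 did, or 21.3% (19.5 to 23.2%), below the 25.5% of all peaks. Between 1001 and 2000 bp of length, where both kinds occurred, the median score was 25.4 for 385 spanning peaks and 17.9 for 224 that ended short. The spanning ones were also longer within that range, with medians of 1654 and 1214.5 bp, so length and reach cannot be told apart in this difference. Within each kind, score and length were related with a rho of 0.284 among spanning peaks (n = 768) and 0.587 among the others (n = 1923).

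Closer to the gene, the median score was higher and more of the peaks were long. In the 540 peaks from 901 to 1000 bp upstream the median score was 8.74 (8.03 to 9.85). It was 11.3 in each of the next 2 steps of 100 bp, 14.2 from 601 to 700 bp and 14.2 (12.3 to 17.0) in the 575 peaks from 501 to 600 bp upstream. Over the same steps the share of peaks of 1000 bp or more went from 24.8% (21.4 to 28.6%) to 48.7% (44.6 to 52.8%). The share that spanned the TSS went from 13.7% (11.1 to 16.9%) to 45.0% (41.0 to 49.1%), and here a shorter distance by itself makes spanning easier. Peaks over 2000 bp, which span the TSS from anywhere in the window, made up 12 to 16.2% of each step with no order by distance.

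Short peaks showed no such gradient. Among outer promoter peaks under 1 kb, the median score was 6.49 in each of the 3 steps from 701 to 1000 bp (n = 406, 342 and 339). It was 6.33 from 601 to 700 bp (n = 316) and 7.02 from 501 to 600 bp (n = 295). For all peaks that ended short of the TSS the medians per step lay between 7.02 and 7.75, and their intervals overlapped.

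**Figure D2:**
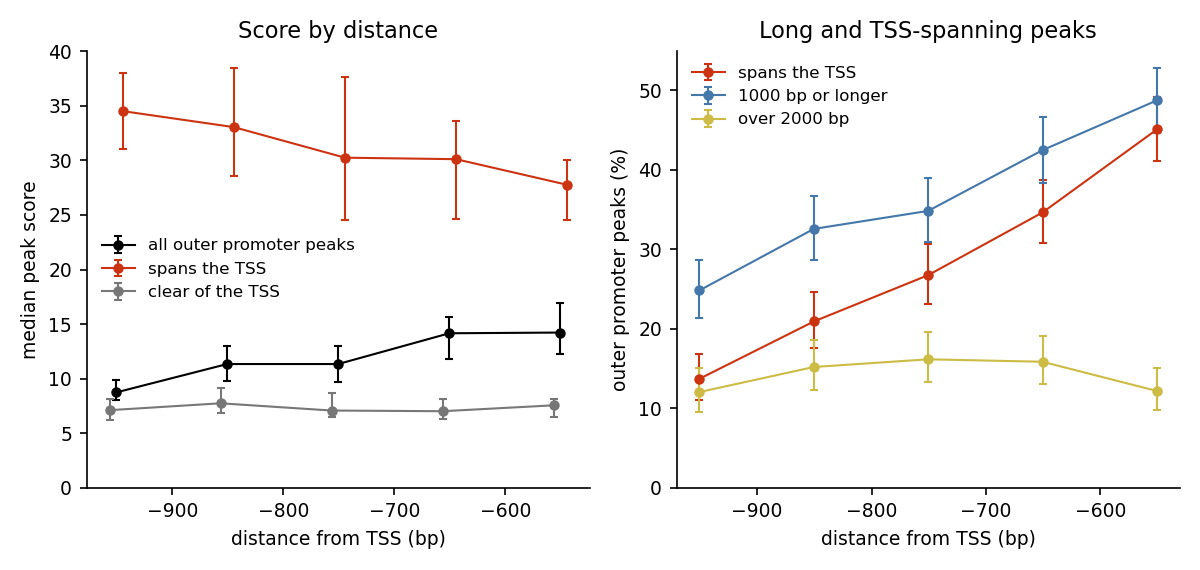
Outer promoter peaks in steps of 100 bp. Left, median score with 95% order-statistic intervals for all of them (black), those that span the TSS (red) and those clear of it (grey), drawn slightly apart so that the bars can be read; the grey line stays between 7.02 and 7.75. Right, the percent of each step that spans the TSS, is 1000 bp or longer, or is over 2000 bp, with 95% Wilson intervals; the first of these rises from 13.7 to 45.0%.

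At the far limit of the window the annotation class changed, while median score and length were close on both sides. At the near limit the median length was close on both sides. The median score was higher in the 50 bp just inside, with an interval that held the value outside. The number of outer promoter peaks per 50 bp ran from 251 to 293. Just inside the far limit, from 951 to 1000 bp, 278 peaks had a median score of 8.10 and a median length of 530 bp. Just outside it, from 1001 to 1050 bp, 220 peaks of other classes (157 intergenic, 40 at transcription termination sites (TTSs), 15 in exons and 8 in introns) had medians of 8.45 and 541 bp. At the near limit, 293 peaks from 501 to 550 bp had a median score of 17.8 (13.6 to 19.6) and a median length of 958 bp. The 340 promoter peaks from 451 to 500 bp had 14.3 and 955.5 bp. From 551 to 600 bp upstream the median score was 12.3 (10.5 to 14.3, n = 282), so the scores showed no clear step at this limit.

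**Figure D3:**
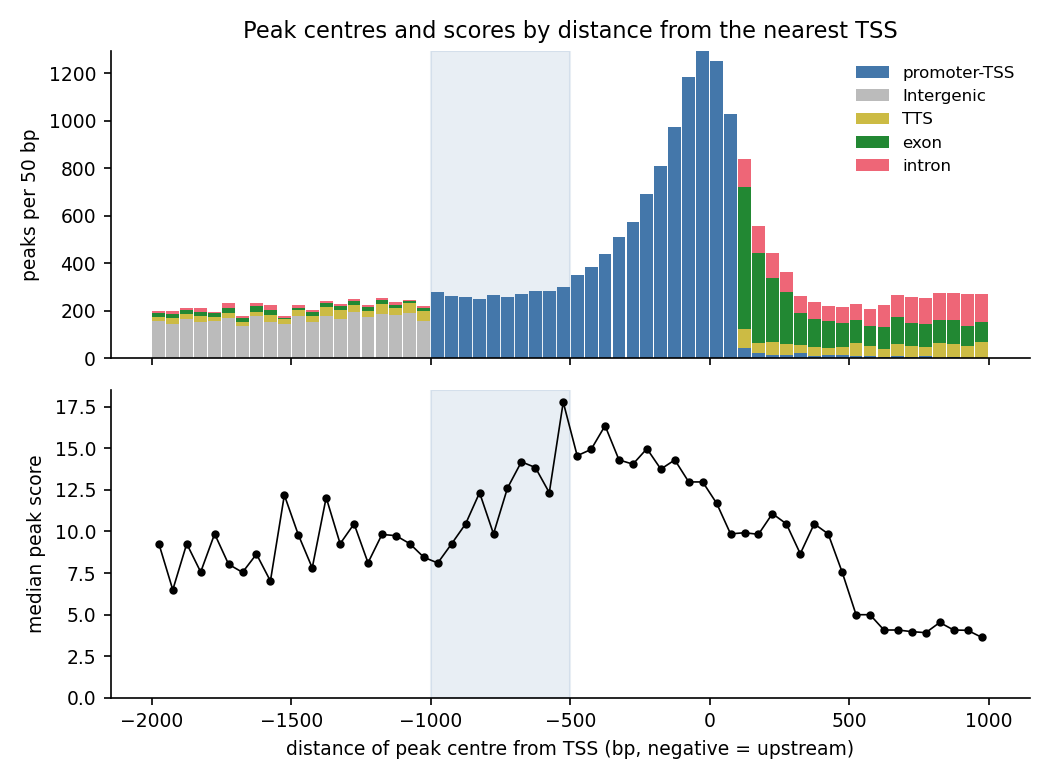
Peaks per 50 bp of distance from the nearest TSS, stacked by annotation class (top), and their median score (bottom), from 2000 bp upstream to 1000 bp downstream. The shaded window holds the outer promoter peaks, with 251 to 293 per 50 bp, against 1295 in the 50 bp just before the TSS.

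Against the regions on either side, the outer promoter peaks ranked below the proximal ones and close to the others upstream. Median scores were 14.8 (13.9 to 15.7) for proximal promoter peaks, 12.3 (12 to 12.6) for core promoter peaks and 11.1 (10.5 to 11.7) for intergenic peaks from 1 to 3 kb upstream. The upper quartile of the list was reached by 41.6% of proximal, 33.5% of core and 33.6% of these intergenic peaks, and by 37.0% of outer ones. Below the lower quartile lay 8.88% of proximal, 9.06% of core and 13.6% of these intergenic peaks, and 15.5% of outer ones. On the numbered chromosomes the outer median was the higher one on 1 of 19 against proximal, 5 of 19 against core and 10 of 19 against these intergenic peaks. Among peaks at or above the lower quartile of the list, the order against core promoter peaks turned, with the outer median 1.34 score units higher. No test was made between these groups, since each peak comes from the same pair of libraries.

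With length held alike, outer promoter peaks had lower median scores than the intergenic peaks next to them, with separate intervals from 301 to 1000 bp of length. Below 301 bp the median was 3.64 for outer promoter peaks (3.22 to 4.01, n = 456) and 4.08 for intergenic ones (3.64 to 4.08, n = 1049), and the intervals overlapped. From 301 to 500 bp it was 5.98 (5.48 to 6.49, n = 573) and 7.56 (7.36 to 8.12, n = 1630). From 501 to 1000 bp it was 11.3 (10.5 to 12.3, n = 670) and 15.8 (15.0 to 17.1, n = 1818). In these middle classes the outer promoter peaks stood apart from the intergenic ones. From 1001 to 2000 bp the medians were 22.2 (20.7 to 24.1, n = 609) and 24.6 (23.0 to 26.2, n = 717), again with overlapping intervals. Over 2000 bp it was 35.4 (32.6 to 38.0, n = 383) and 36.3 (32.9 to 38.5, n = 410), with intervals that overlapped. The groups were not chosen alike by class. All peaks centred in the outer window were classed as promoter, while the intergenic group left out peaks at TTSs, in exons and in introns. From 1001 to 1050 bp upstream these were 40, 15 and 8 of 220 peaks. The part of this choice in the score differences was not tested.

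The outer promoter median was the lower of the pair in 5 of 5 length classes against both intergenic and core promoter peaks, and in 4 of 5 against proximal ones. Core promoter peaks from 501 to 1000 bp long had a median of 17.0 (16.4 to 17.5, n = 2681). With the length classes of the intergenic peaks weighted to the make-up of the outer promoter peaks, the intergenic median became 14.2, which turned an outer excess of 0.57 score units into a deficit (-2.54). The difference from core promoter peaks went from -0.69 to -2.66, and that from proximal ones from -3.19 to -1.42. The intergenic group left out upstream peaks of other classes, and the part of this in the intergenic deficit was not tested.

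**Figure D4:**
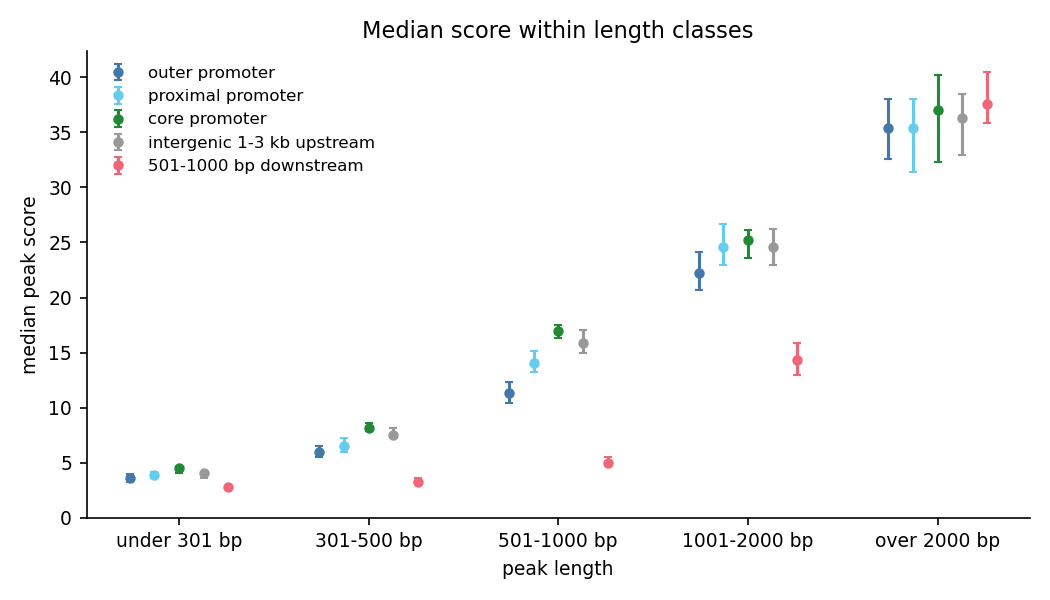
Median score, with 95% order-statistic intervals, in 5 classes of peak length for outer, proximal and core promoter peaks, intergenic peaks from 1 to 3 kb upstream and all peaks from 501 to 1000 bp downstream. From 501 to 1000 bp in length the outer promoter median is 11.3, below the 15.8 of the intergenic and above the 5.0 of the downstream peaks.

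The mirror-image window downstream of the TSS held nearly as many peaks, with lower scores. From 501 to 1000 bp downstream of the TSS lay 2526 peaks, of which 1022 were in introns, 950 in exons, 508 at TTSs and 46 in promoters of other genes. Their median score was 4.08 (4.08 to 4.53) and their median length 442.5 bp. The upper quartile of the list was reached by 18.8% (17.3 to 20.4%) of them. The outer promoter median was the higher on 19 of 19 numbered chromosomes.

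The outer promoter median was the higher in 4 of 5 length classes. From 501 to 1000 bp the medians were 11.3 upstream and 5.0 (4.81 to 5.48, n = 504) downstream, and from 1001 to 2000 bp they were 22.2 and 14.3 (13 to 15.8, n = 274). Over 2000 bp the order turned, with 35.4 upstream and 37.6 (35.8 to 40.5, n = 329) downstream, and the intervals overlapped. Weighted to the lengths of the outer promoter peaks, the downstream median was 5.48.

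Of the 1923 peaks that ended short of the TSS, most belonged to genes with no listed peak over the TSS. Strand and exact TSS follow from the signed distances wherever a gene has 2 or more peaks, which was the case for 2208 of the 2691 genes (1131 on the plus and 1077 on the minus strand). Of the 1575 such genes whose outer promoter peak ended short, 684 had the TSS under another listed peak, which was classed as promoter at 397, exon at 167, intron at 68 and TTS at 52. A further 348 genes had no other peak, and at 335 of them neither of the possible TSS positions lay under a peak. At least 1226 of the 1923, or 63.8% (61.6 to 65.9%), therefore had no listed peak over the TSS.

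The outer promoter peaks scored slightly lower where the TSS was covered. Their median score was 6.37 and their median length 417 bp at the 684 genes with a covered TSS, whose covering peak had a median of 9.26. At the 891 genes of known strand with a bare TSS the outer promoter peaks had medians of 8.12 and 554 bp. At all of these the strand is known only because the gene has a further peak somewhere, so the covered share among them is not that of the whole.

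At 434 genes an outer promoter peak and a separate promoter peak nearer the gene stood side by side. Listed peaks do not overlap, so an outer peak with a separate promoter peak nearer the gene cannot reach past the TSS. The nearer peak spanned the TSS at 393 genes, 90.6% of them. The nearer peak was centred at a median of 11.5 bp upstream (quartiles 93.5 bp upstream and 46 bp downstream), and the centres were a median of 809.5 bp apart. Median lengths were 395 bp for the outer and 450 bp for the nearer peak.

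Neither peak of such a pair was the stronger throughout. The outer peak had the lower score at 239 genes, 55.1% (50.4 to 59.7%), the higher at 188, and 7 were tied. Median scores were 5.69 for the outer and 7.56 for the nearer peak. Neighbouring peaks in the whole list were at least 197 bp apart, edge to edge, and whether closer sites were merged is not stated.

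Most genes with an outer promoter peak had further peaks elsewhere. The outer peak was the only listed peak at 483 genes, 17.9% (16.5 to 19.4%), compared with 25.5% (23.9 to 27.1%) of genes with a proximal and 32.5% (31.4 to 33.7%) of genes with a core promoter peak. An intergenic peak was assigned to 1109 of the genes (41.2%), an exon peak to 835 (31.0%), an intron peak to 795 (29.5%) and a TTS peak to 793 (29.5%). Among genes with a proximal promoter peak, exon peaks were found at 26.6% (25.1 to 28.3%) and intron peaks at 27.0% (25.4 to 28.7%). Intergenic peaks were found at 42.9% and TTS peaks at 28.5% of them. Exon peaks were found at 20.3% (19.3 to 21.3%) and intron peaks at 23.9% (22.9 to 25.0%) of the genes with a core promoter peak. For these, the intergenic share was 36.4% and the TTS share 23.7%. A long peak over the gene start takes up space that short peaks could fill, and gene length was not used, so these shares are not enrichments.

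Over all 2208 genes with further peaks, the outer promoter peak had the highest score of its gene at 1091, 49.4% (47.3 to 51.5%), a lower one than the strongest other peak at 1098, and 19 were tied. Where a gene had exactly 2 peaks, the outer promoter peak more often had the higher score. It did so at 479 of 760 such genes, 63.0% (59.5 to 66.4%), lower at 270, and 11 were tied. Outer peaks that spanned the TSS scored higher at 192 of 206 genes, 93.2% (88.9 to 95.9%), and those that ended short at 287 of 554, 51.8% (47.6 to 55.9%). The spanning peaks were also far longer than the other peak, with medians of 2027 and 445.5 bp, while those that ended short were of like length, with 455 and 459.5 bp, so reach and length cannot be told apart here. Against an intron peak it was higher at 122 of 146 genes, 83.6% (76.7 to 88.7%), and against an exon peak at 120 of 163, 73.6% (66.4 to 79.8%). Against a TTS peak it was higher at 83 of 138, 60.1% (51.8 to 67.9%). Against an intergenic peak it was higher at 90 of 175, 51.4% (44.1 to 58.7%), and against another promoter peak at 64 of 138, 46.4% (38.3 to 54.7%). By median length the outer peak was also the longer against intron (1326.5 and 357.5 bp) and exon peaks (635 and 465 bp). The same held against TTS (762 and 567 bp) and intergenic peaks (663 and 484 bp). Against another promoter peak it was the shorter (379 and 413 bp), and lengths were not matched. None of these rank shares was worked out for other groups of peaks, so they are not read as particular to outer promoter peaks.

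Some outer promoter peaks had another peak close by. The nearest other peak centre was within 1 kb for 708 of the 2691, 26.3% (24.7 to 28.0%), against 20.6% (20.2 to 20.9%) of all peaks. The share was higher, at 37.1% (35.2 to 39.0%), among peaks from 501 to 1000 bp downstream. It was 14.2% for proximal and 15.9% for core promoter peaks, and 18.1% for intergenic peaks from 1 to 3 kb upstream. Of those that ended short of the TSS, 706 (36.7%) had such a neighbour. Of those that spanned it 2 did, but peaks this long with gaps of at least 197 bp leave almost no room for another centre within 1 kb, so these shares were not compared. Among the 1575 of known strand that ended short, 569 (36.1%) had a peak within 1 kb towards the gene and 214 (13.6%) away from it. The strand is known only at genes with a further peak, which favours neighbours on the gene side, so the split was not read as a property of all 1923.

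The highest score in the whole list, 205, belonged to an outer promoter peak. It covered 1297 bp on chromosome 16 (16960714 to 16962010), centred 948 bp upstream of VIT_16s0050g00120, and ended 300 bp before the plus-strand TSS at 16962310. The strongest of the 3 other peaks of this gene, an intergenic peak 2250 bp upstream, scored 44.0. The next outer promoter peak by score, 127, held rank 26 in the list; it measured 911 bp, lay on chromosome 14 (8756146 to 8757056), was centred 852 bp upstream of VIT_14s0081g00560 and stopped 397 bp short of its minus-strand TSS at 8755749. The strongest of the 4 other peaks of that gene, at its TTS, scored 11.7. Both therefore stood clear of the TSS and above everything else assigned to their genes.

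The next members by score showed both kinds of reach. A peak of 2741 bp on chromosome 10 (3103065 to 3105805, score 126) spanned the TSS at 3103623, from a centre 812 bp upstream. On chromosome 7 (2262299 to 2263892, score 114) a peak of 1594 bp stopped 3 bp before the TSS at 2262296. A peak of 4402 bp on chromosome 1 (9991567 to 9995968, score 109) ran past the TSS at 9994638. These 3 genes had no other peak scoring above 5.98.

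A short peak also ranked high: 654 bp on chromosome 16 (3127878 to 3128531) scored 109, was centred 935 bp upstream and ended 609 bp from its TSS at 3127269, and this gene also had a separate promoter peak nearer the TSS. The remaining members of the 10 highest lay on chromosome 12 (7372543 to 7375158, score 96.8), chromosome 4 (11492951 to 11494138 and 17587779 to 17590452, both 96.0) and chromosome 11 (7623137 to 7626095, 92.7). Of these 10 peaks, 5 spanned the TSS and each was the strongest peak of its gene, which choosing by score itself favours. Among the 100 highest-scoring outer promoter peaks 76 spanned the TSS, and among the 1000 lowest-scoring 19 did.

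The longest outer promoter peaks ran well past the TSS. The longest covered 10071 bp on chromosome 18 (12067764 to 12077834, score 75.5) around a TSS at 12073618, from a centre 819 bp upstream. A peak of 8204 bp on chromosome 3 (3792318 to 3800521) scored 80.9, with a minus-strand TSS at 3795836. Peaks of 7178 bp on chromosome 13 (5760860 to 5768037, score 82.1), 7143 bp on chromosome 4 (17572528 to 17579670, score 81.6) and 6854 bp on chromosome 13 (4758312 to 4765165, score 65.0) followed. For such peaks the centre says little about where the signal was highest, and the list gives no summit. The 3 shortest, of 196 bp, had scores of 5.98 (chromosome 2, 4508591 to 4508786), 2.76 (chromosome 10, 16610558 to 16610753) and 1.53 (chromosome 8, 15250683 to 15250878).

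The share of outer promoter peaks that spanned the TSS varied from chromosome to chromosome. The share was highest on chromosome 18, at 39.1% (33.0 to 45.4%) of 233 peaks, followed by chromosome 8 with 36.9% (30.7 to 43.6%) of 214. It was lowest on chromosome 9, at 16.3% (10.3 to 24.9%) of 98, followed by chromosome 16 with 16.7% (10.01 to 26.5%) of 78. The intervals of the first pair do not overlap those of the second. These chromosomes were picked as the highest and lowest by this share, which itself favours such a gap, and the difference was not tested.

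Median scores followed the same order only in part. They ran from 7.02 (5.98 to 9.40) on chromosome 3 to 14.1 (11.7 to 18.5) on chromosome 8. For peaks that ended short of the TSS the range was 6.15 to 9.26. Median lengths ran from 468 bp on chromosome 16 to 908 bp on chromosome 18. As a share of the promoter peaks, outer promoter peaks ran from 16.2% (13.2 to 19.6%) on chromosome 3 to 26.7% (23.0 to 30.7%) on chromosome 2. Gene spacing and read depth per chromosome were not used, and their part in these differences was not tested.

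**Figure D5:**
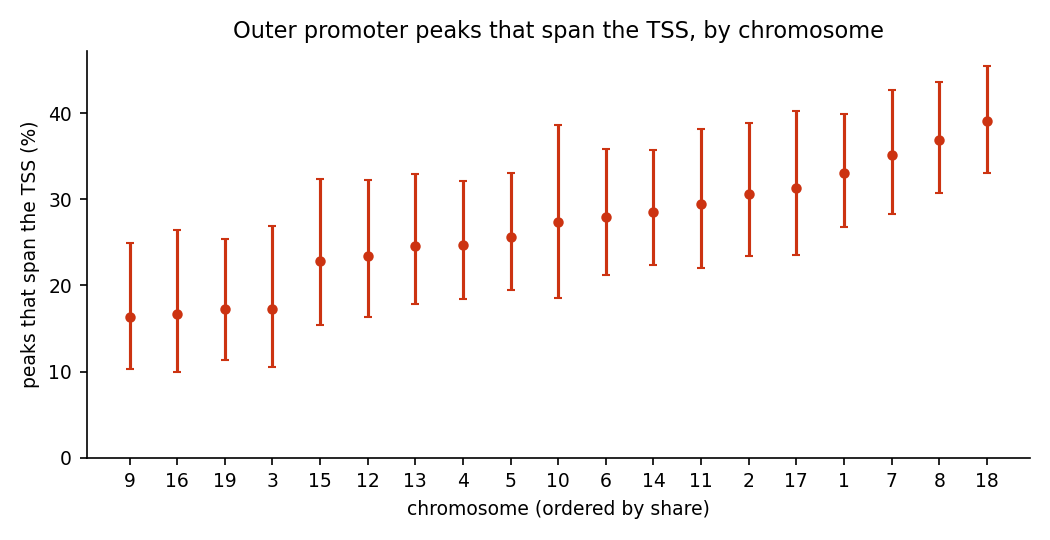
Percent of outer promoter peaks that span the TSS on each of the 19 numbered chromosomes, ordered by that share, with 95% Wilson intervals. Chromosomes 18 (39.1%) and 8 (36.9%) stand at the top and chromosome 9 (16.3%) at the bottom.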

How the data were processed

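The submitters' processing notes name the tools BWA, MACS2 and HOMER without saying what each did. Versions, settings and the genome build were not given in the sources used here. The table that the authors deposited lists, per the file headers, the coordinates of every peak, its score on an unnamed scale, its annotation class and a signed distance to the TSS of the nearest gene. The table does not say whether libraries were pooled. The outer promoter peaks and the groups compared were chosen with earlier results of these data known.

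Peak length counts both ends. For 12847 genes, those with several peaks, the strand and TSS were worked out as the single position that all of the gene's signed distances share; a peak spans the TSS where that position lies within it, and elsewhere where its distance is at most its length divided by 2. Shares carry 95% Wilson intervals and medians exact binomial order-statistic intervals. Comparisons on length used 5 classes (edges 300, 500, 1000 and 2000 bp). With 1 library per group no test was made. The functions were tested on simulated data. Regions named are the 10 highest-scoring, 5 longest and 3 shortest. Of the 2691 gene identifiers, 0 matched the 29591 genes of the RefSeq table, so genes are given no names or roles and planned gene lists and motif counts were not run. Calculations ran in Python 3.11.15 (pandas 2.3.3, numpy 2.4.6, scipy 1.17.1, statsmodels 0.14.6), and matplotlib 3.10.9 drew the plots.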

Additional observations from a re-analysis of the deposited data

How the results depend on the processing

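Of 69 alternative values for 12 results, 31 stayed within the interval or tolerance of the reported value, 34 moved and 4 changed sign. Splitting off peaks that span the TSS, and matching peaks under 1 kb on length, were chosen after seeing the data. With peaks at or above the lower quartile of the score, the median score was 15.0, the median length 804 bp, the share in the upper quartile 43.8%, spanning 33.7%, only peak of the gene 29.4% and a peak within 1 kb 17.5%. With peaks under 1 kb there were 1698 peaks, with 6.49, 430 bp, 17.6%, 0%, 23.6% and 39.9%. From 601 to 900 bp upstream there were 1576, with 29.3% near another peak. Without spanning peaks the median score was 7.56, the length 469 bp and the upper-quartile share 21.3%. The upper decile held 15.9%, and 36.7% came within 200 bp of the TSS. Another peak lay within 500 bp for 0.260% and within 2 kb for 65.3%. A divergent TSS lay within 2 kb for 1.49%. The score difference from proximal peaks was -3.19, -1.42 matched on length, -1.55 above the lower quartile and -1.07 under 1 kb and matched. That from core peaks was -0.69, -2.66 matched, 1.34 above the lower quartile, -3.96 under 1 kb and -2.19 under 1 kb and matched. That from intergenic peaks was 0.57, -2.54 matched, 1.34 above the lower quartile, -2.14 under 1 kb and -1.62 under 1 kb and matched. That from downstream peaks was 7.56, 6.15 matched, 6.84 above the lower quartile, 3.00 under 1 kb and 2.85 under 1 kb and matched. Fewer peaks, shorter peaks and wider limits follow from how these settings are built; the cause was not tested for the rest. No paired analysis was possible because the list rests on 1 anti-FLAG library and 1 control; for the same reason no replicate was left out in turn.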

Other observations

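Outer promoter peaks of genes with ENSRNA identifiers numbered 47, or 1.75% (95% Wilson interval 1.32 to 2.31%) of the 2691, against 1.44% of all peaks. Their median score was 6.98 (4.08 to 18.2) and 12 of them spanned the TSS, against a median of 11.7 (11.1 to 12.3) for the 2644 at VIT genes, and the intervals overlapped. The highest score among the 47 was 47.2.

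A start site of the other strand on the far side of the peak was placed for few outer promoter peaks. Within 1 kb of the centre it was found for 4 of the 2208 peaks of known strand, 0.181% (0.0705 to 0.465%), and within 2 kb for 33. Of these 33, 9 spanned their own TSS and 5 spanned both start sites. Only TSSs of genes with 2 or more peaks were placed, so these counts are lower bounds. By the rule none lies nearer than the gene's own TSS, which by itself keeps the count within 1 kb low. No share for other groups of peaks was worked out beside it.

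The 1 Mb with most outer promoter peaks lay on chromosome 1 from 3000001 to 4000000 bp, with 25 of them among 72 promoter peaks, a median score of 21.5 and 14 spanning the TSS. The median over the 371 such windows with any was 5.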
